A study of Mus musculus with 30 samples.

Results

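Primary mouse myoblasts and C2C12 myoblasts were compared at day 0, when both cultures were confluent and still in growth medium, before differentiation was started. The comparison took in the 6 libraries that the labels place at day 0, 3 from primary myoblasts and 3 from C2C12 myoblasts, of 30 libraries in all. The other libraries were myotubes of the same 2 kinds of cell, taken at later days on plastic or on gelatin hydrogels, flat or micropatterned. RNA was sequenced as paired reads of 75 bases and the values used are transcript counts estimated by the authors, added up per gene.

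The primary myoblasts were isolated from hindlimb muscle of 3 mice of the C57/Bl6J strain, aged 8 weeks, enriched by pre-plating, and grown on matrix-coated dishes in Ham's F-10 medium with serum and basic FGF. C2C12 is an immortal line, a subclone of cells grown out of adult mouse muscle, and was grown in DMEM with a lower share of serum and no added FGF. The labels give plastic as the substrate of all 6 libraries and name neither a strain for C2C12 nor a sex for either cell. By the methods, primary cells replated on micropatterned gelatin were from then on handled like C2C12. The medium of the primary cultures at the day 0 harvest was not stated. Expansion medium, dish coating, time in culture and cell type, with any difference of strain or sex, cannot be told apart in this comparison. The replicates of a condition were prepared as separate cultures, and which mouse each primary library came from was not stated, so the p-values measure only the spread between these cultures.

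A myoblast is a committed muscle precursor that still divides. Paired box factors mark the progenitor, the myogenic helix-loop-helix factors Myf5 and Myod1 commit it to muscle, and Myogenin is turned on as the cell leaves the cell cycle to fuse into a myotube. Myoblasts also carry a memory of their place in the body, written in Hox and other regional factors, and continued growth in culture depends on passing the INK4 and p53 brakes on the cell cycle.

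The libraries held 27.6 to 28.0 M (mega) estimated counts in primary myoblasts and 19.7 to 27.8 M in C2C12. Transcripts of the mitochondrial genome made up 3.34 to 3.75% of the counts in primary and 2.05 to 2.82% in C2C12 libraries. Across genes, the correlation of log2(CPM + 1) was 0.995 between primary replicates 1 and 2 and 0.995 to 0.996 between C2C12 libraries, and 0.875 to 0.879 between the cell types. Primary replicate 3 stood apart, with a correlation of 0.972 and 0.975 with the other primary libraries. In it, 641 genes were over 2-fold from both other primary libraries, 290 above and 351 below, against 31 and 15 genes for primary replicates 1 and 2 and 6 to 27 for the C2C12 libraries. The biological coefficient of variation was 0.268 in primary and 0.0891 in C2C12 myoblasts. Results that rest on this library are therefore given with and without it.

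Primary and C2C12 myoblasts differed in a large part of the genes read. Of 14226 genes tested with edgeR's quasi-likelihood test, 7685 (54.0%) differed at an adjusted p under 0.05, where 3892 (27.4%) were higher and 3793 (26.7%) lower in primary myoblasts. Of these, 1769 (12.4%) were over 2-fold higher and 2040 (14.3%) over 2-fold lower. The values of 9267 genes (65.1%) did not overlap between the groups. The median log2 fold change, given throughout as primary over C2C12, was −0.02, so gene groups can be read against a median near 0. With primary replicate 3 left out, 9638 genes differed, 4905 higher and 4733 lower. CPM below stands for counts scaled to library size after TMM normalisation, and every adjusted p is from edgeR with Benjamini-Hochberg adjustment over all genes tested.

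Both cultures carried markers of myogenic cells, apart from Msc, at 0 to 0.0387 CPM in primary against 5.72 to 8.15 CPM in C2C12 libraries. The 10 markers of myogenic cells summed to 5605 to 6809 CPM in primary and 3033 to 3742 CPM in C2C12 libraries, and 5 were higher and 4 lower in primary, beside the 27.4% and 26.7% of all genes tested. Desmin (Des), the muscle intermediate filament, gave 1375, 1456 and 1637 CPM in primary against 972, 1097 and 1315 CPM in C2C12 libraries. Cdh15, the cadherin of muscle cells, gave 265, 309 and 349 CPM in primary against 361, 463 and 464 CPM in C2C12 libraries. Neither gene overlapped between the groups, Des being higher and Cdh15 lower in primary, and Des alone lay above the summed markers of any other cell type in each library. The call of Des was lost without primary replicate 2 or C2C12 replicate 1 or 2, and that of Cdh15 without primary replicate 1 or 2 or C2C12 replicate 2 or 3. Fgfr4, a fibroblast growth factor receptor of myoblasts, gave 30.1, 33.4 and 33.8 CPM in primary against 44.7, 63.1 and 62.4 CPM in C2C12 libraries. The groups did not overlap for Fgfr4 (log2 fold change −0.81, standard error 0.15, adjusted p = 0.00309).

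Markers of the other cells of muscle were low in both groups beside the myogenic markers. The 14 genes of fibroblasts and fibro-adipogenic progenitors summed to 183 to 272 CPM in primary and 494 to 560 CPM in C2C12 libraries. Of the 9 of them tested, 8 were lower and 0 higher in primary, while Lum and Tcf21 were listed at 0 throughout. Pdgfra, the receptor that defines these progenitors, gave 1.29, 1.45 and 1.12 CPM in primary against 13.9, 14.8 and 14.4 CPM in C2C12 libraries. Leukocyte genes summed to 3.79 to 5.93 CPM in primary and 9.73 to 10.4 CPM in C2C12 libraries, with Adgre1, C1qa, C1qb and Itgam at 0 in all 6. Endothelial genes summed to 10.7 to 13.8 CPM in primary and 5.43 to 6.67 CPM in C2C12 libraries, with Cldn5 at 0. The pericyte and smooth muscle markers summed to 235 to 342 CPM in primary and 446 to 558 CPM in C2C12. Their members went opposite ways. Rgs5, a regulator of G protein signalling, gave 54.9, 62.2 and 158 CPM in primary against 0.331, 0.309 and 0.299 CPM in C2C12 libraries, a difference of 8.17 on the log2 scale, whereas Cspg4, the NG2 proteoglycan, gave 0.994, 0.842 and 1.005 CPM in primary against 49.6, 53.04 and 43.2 CPM in C2C12 libraries (log2 fold change −5.68). In these bulk libraries fewer cells of a type and less RNA per cell cannot be told apart.

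The regulators of muscle identity differed between the cultures member by member. Of 25 myogenic regulators tested, 12 were higher and 7 lower in primary myoblasts, beside 27.4% and 26.7% of all genes tested. Their median log2 fold change was 0.43. Primary myoblasts held more Pax3, Pax7, Myod1 and Myog, and C2C12 held more Myf5 and Msc. Without primary replicate 3, 13 regulators were higher and 7 lower, with a median of 0.53, and the median was 0.17 without primary replicate 1, 0.28 without primary replicate 2, 0.10 with the replicate block and 0.06 with limma.

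Pax7, the paired box factor that marks satellite cells, gave 149, 157 and 138 CPM in primary against 78.7, 89.8 and 79.2 CPM in C2C12 libraries. The groups did not overlap and differed less than 2-fold (log2 fold change 0.84, standard error 0.10, adjusted p = 0.000373). Pax3, its paralog of the embryonic muscle progenitor, was at a lower level, with 10.4, 7.65 and 18.5 CPM in primary against 0.911, 1.41 and 0.847 CPM in C2C12 libraries. The primary libraries all lay above the C2C12 libraries (log2 fold change 3.51, standard error 0.40, adjusted p = 0.000324). Myf5, the first determination factor of the embryo, gave 5.85, 7.04 and 14.2 CPM in primary against 62.4, 56.8 and 59.6 CPM in C2C12 libraries. It was lower in all 3 primary libraries (log2 fold change −2.72, standard error 0.32, adjusted p = 0.00035).

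Myod1, the factor able to convert other cells to muscle, gave 817, 1029 and 965 CPM in primary against 158, 169 and 196 CPM in C2C12 libraries. It was the opposite of Myf5, with each primary library above all C2C12 libraries (log2 fold change 2.43, standard error 0.14, adjusted p = 1.46e-05). Myog, which marks the onset of differentiation, gave 583, 599 and 234 CPM in primary against 108, 126 and 164 CPM in C2C12 libraries, so that primary replicate 3 lay nearer to C2C12 than the other primary libraries did, although the groups did not overlap (log2 fold change 1.83, standard error 0.36, adjusted p = 0.00387). Without that library the Myog difference was 2.19 on the log2 scale (adjusted p = 7.85e-09). Msc, the helix-loop-helix repressor musculin, gave 0, 0.0383 and 0.0387 CPM in primary against 5.72, 8.15 and 7.82 CPM in C2C12 libraries. Its primary values came from at most 1 count per library, so no fold is given.

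Among the partners of these factors, the Eya transcriptional coactivators differed in opposite directions. Eya2 gave 26.5, 31.2 and 14.1 CPM in primary against 0.497, 0.447 and 0.648 CPM in C2C12 libraries (log2 fold change 5.50, standard error 0.38, adjusted p = 3.33e-05). Eya1 gave 4.197, 3.099 and 10.3 CPM in primary against 39.1, 34.6 and 34.4 CPM in C2C12 libraries (log2 fold change −2.62, standard error 0.41, adjusted p = 0.00146). The Id proteins, which hold helix-loop-helix factors inactive, were 2.18 for Id1, −0.38 for Id2 and 0.77 for Id3 on the log2 scale, with adjusted p of 7.32e-05, 0.0475 and 0.00529, and the call of Id2 was lost under 11 of 15 other settings.

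**Figure D1:**
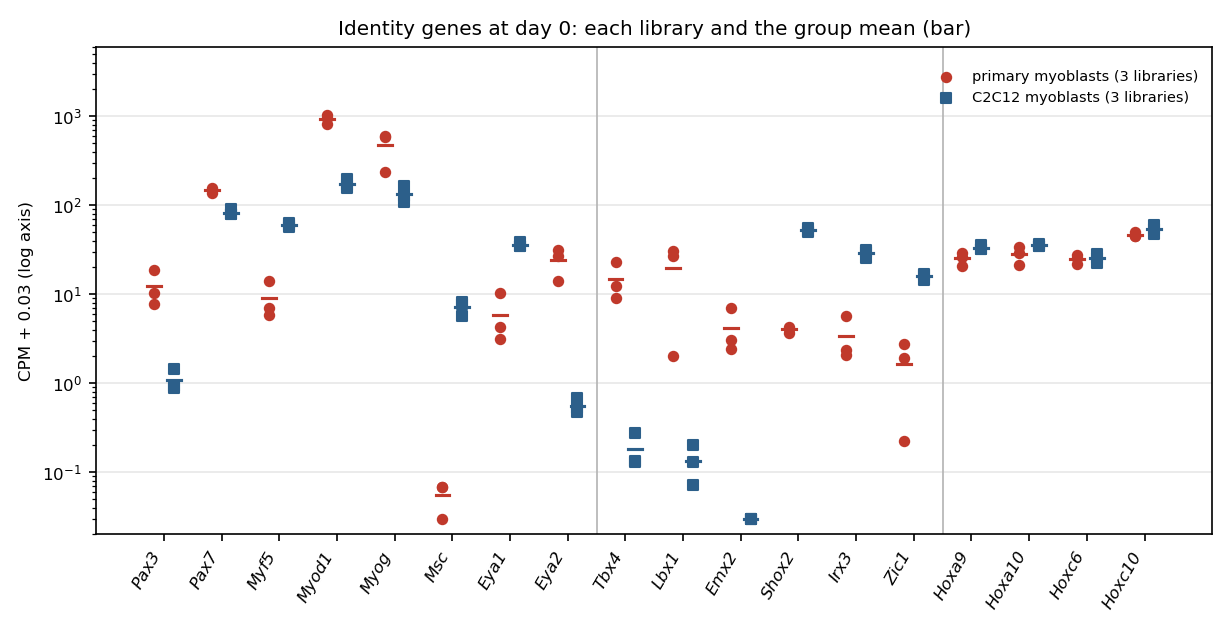
Level of 18 identity genes in each day 0 library, as CPM + 0.03 on a log axis, with primary libraries left of C2C12 libraries for each gene and genes grouped as myogenic, limb and Hox. Pax3, Pax7 and Myod1 sit higher in all 3 primary libraries and Myf5 sits lower.

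Genes of the differentiated muscle fibre were already read in both cultures and were more often higher than lower in primary myoblasts. Of 51 sarcomere and muscle differentiation genes tested, 24 were higher and 8 lower, with a median log2 fold change of 0.78. The median was 1.00 and 0.91 in primary replicates 1 and 2 over the mean of C2C12, and −0.13 in primary replicate 3. Without primary replicate 3, 34 were higher and 10 lower and the median was 0.97. Neb, the giant thin filament protein nebulin, gave 2949.5, 2098 and 1996 CPM in primary against 175, 165 and 222 CPM in C2C12 libraries, with no overlap (log2 fold change 3.65, standard error 0.21, adjusted p = 1.46e-05). Atp2a1, the calcium pump of fast fibres, had a log2 fold change of 2.89 and Ryr1, the calcium release channel, one of 2.41. Cacng1, a subunit of the muscle calcium channel, went the other way, with 21.02, 21.8 and 20.02 CPM in primary against 77.1, 83.8 and 96.97 CPM in C2C12 libraries (log2 fold change −2.04, standard error 0.12, adjusted p = 1.37e-05). Of the 25 tested genes of the smooth muscle and actin program, 7 were higher and 10 lower, beside 27.4% and 26.7% of all genes tested. Their median was −0.20.

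Of 18 genes of myoblast fusion tested, 6 were higher and 8 lower, beside 27.4% and 26.7% of all genes tested, with a median log2 fold change of 0.05. Without primary replicate 3 they were 9 and 8, with a median of 0.27. Dock5, an activator of Rac, was at 7.57 to 9.39 CPM in primary against 139 to 151 CPM in C2C12 libraries (log2 fold change −4.16). Kirrel3, an immunoglobulin family adhesion molecule, was at 0.0387 to 0.0765 CPM in primary against 4.27 to 5.22 CPM in C2C12 libraries and came from at most 2 counts per primary library. Both were lower in every primary library. Cdon, a cell surface protein that promotes myogenesis, was higher by 2.02 on the log2 scale, and Jam2, a junctional adhesion molecule, was at −1.95. Beside 27.4% and 26.7% of all genes tested, the satellite cell surface and signalling genes also split, with 10 higher and 9 lower of 22. Among them Cxcr4, the chemokine receptor of migrating myoblasts, was at 27.98 to 33.7 CPM in primary against 125 to 156 CPM in C2C12 libraries (log2 fold change −2.24, standard error 0.13, adjusted p = 1.38e-05).

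Position factors of the limb and trunk differed in both directions. Of 25 limb and regional transcription factors tested, 8 were higher and 10 lower in primary myoblasts, beside 27.4% and 26.7% of all genes tested. Their median log2 fold change was −0.68. The median was −0.88 without primary replicate 3 (10 higher, 14 lower), and −1.20, −1.10 and −1.04 without C2C12 replicate 1, C2C12 replicate 3 and primary replicate 2. Tbx4, the T-box factor of the hindlimb bud, gave 8.98, 12.4 and 23.1 CPM in primary against 0.248, 0.103 and 0.0997 CPM in C2C12 libraries. All 3 primary libraries were far above C2C12 (log2 fold change 6.58, standard error 0.54, adjusted p = 7.02e-05). Pitx1, the other hindlimb factor, was listed at 0 in all 30 libraries. Lbx1, the homeobox factor of muscle precursors that migrate into the limb, gave 26.8, 30.6 and 1.97 CPM in primary against 0.0414, 0.172 and 0.0997 CPM in C2C12 libraries. Primary replicate 3 was below the other primary libraries by more than 10-fold, yet above every C2C12 library (log2 fold change 7.45, standard error 1.24, adjusted p = 0.00187). Without it the difference in Lbx1 was 8.01 on the log2 scale (adjusted p = 4.27e-12).

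Emx2, a homeobox factor of the urogenital tract, forebrain and limb girdle, was read in primary myoblasts, with 3.06, 2.37 and 6.96 CPM in primary against 0, 0 and 0 CPM in C2C12 libraries. Shox2, a homeobox factor of the proximal limb skeleton, was the converse, with 3.68, 4.25 and 4.06 CPM in primary against 50.9, 55.9 and 50.1 CPM in C2C12 libraries (log2 fold change −3.71, standard error 0.12, adjusted p = 1.64e-06). The Iroquois factors Irx3 and Irx5 were also lower in primary. Irx3 gave 2.36, 2.07 and 5.72 CPM in primary against 25.2, 30.1 and 31.05 CPM in C2C12 libraries (log2 fold change −3.09, adjusted p = 0.000451) and the log2 fold change of Irx5 was −2.24. Zic1, a zinc finger factor of the dorsal somite, gave 2.72, 1.91 and 0.193 CPM in primary against 17.02, 16.3 and 14.5 CPM in C2C12 libraries, with primary replicate 3 the lowest of the 6 (log2 fold change −3.30, adjusted p = 0.00422).

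Few Hox genes, which hold the position of a cell along the body axis, passed the test. Of 39 Hox genes measured, 22 were tested, and 0 were higher and 3 lower in primary, beside 27.4% and 26.7% of all genes tested, with a median log2 fold change of −0.16. The 3 were Hoxb4, Hoxc5 and Hoxc9, at −2.83, −1.38 and −0.85 on the log2 scale, and the call of Hoxc5 was lost when primary replicate 2 or any C2C12 library was left out. Hoxc10, a gene of the lumbar and hindlimb region, was read in both cultures, with 44.5, 45.6 and 50.4 CPM in primary against 54.3, 47.2 and 59.5 CPM in C2C12 libraries. The groups overlapped and the log2 fold change was −0.20 (standard error 0.12, adjusted p = 0.189). Hoxa11 and Hoxa13 were split within the primary group. Hoxa11 gave 20.9, 23.1 and 0.928 CPM in primary against 19.5, 18.5 and 19.7 CPM in C2C12 libraries and Hoxa13 gave 6.88, 7.46 and 0.155 CPM in primary against 2.57, 2.44 and 2.84 CPM in C2C12 libraries, lowest in primary replicate 3. Once that library was left out, 6 Hox genes were higher and 4 lower, and Hoxa13 was among the higher ones (log2 fold change 1.49, adjusted p = 8.72e-06).

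The INK4 locus was read in primary myoblasts and not in C2C12. Cdkn2a, which encodes the cyclin-dependent kinase inhibitor p16 from its downstream start and the Mdm2 inhibitor Arf from its upstream start, gave 86.8, 108 and 81.5 CPM in primary against 0, 0 and 0 CPM in C2C12 libraries. No count fell on it in any C2C12 library, so it was at least 615-fold higher in primary against a floor of 3 counts per library. Both transcripts were present: the p16 transcript was at 150, 183 and 129 TPM, a level corrected for transcript length, and the Arf transcript at 56.5, 68.1 and 42.3 TPM in primary, and both were at 0 in C2C12. Its neighbour Cdkn2b, which encodes the kinase inhibitor p15, gave 43.3, 52.9 and 18.7 CPM in primary against 0, 0 and 0 CPM in C2C12 libraries, at least 256-fold higher. The 2 genes are neighbours, and 6 other pairs of neighbouring genes were read in one cell type alone. Among these pairs is Brinp3 with Gm15583, a processed pseudogene. The gene of this kind next to Cdkn2b, Gm12671, is a processed pseudogene identical to a stretch of the coding gene Gapdh. Its reads cannot be placed with certainty and it was not counted with Cdkn2a and Cdkn2b. Mtap, on the other side of the locus, was read in both groups with overlapping values, 123, 145 and 135 CPM in primary against 156, 136 and 132 CPM in C2C12 libraries (log2 fold change −0.07, standard error 0.11, adjusted p = 0.598). Klhl9, a ubiquitin ligase adaptor close by and chosen after its values were seen, was also read in both, at 231 to 259 CPM in primary against 185 to 188 CPM in C2C12 libraries. The presence of the DNA itself was not measured.

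The start regions of these genes are shown because their genes were read in one cell type alone, 3 in primary and 1 in C2C12. Each sequence runs from 250 bases before to 50 bases after the RefSeq start (GRCm38.p6), 5′ to 3′ on the gene's strand, in lower case with each CpG in capitals. The upstream start region of Cdkn2a (chr4:89294570-89294869, minus strand) held 45 CpG, the downstream one (chr4:89282143-89282442, minus strand) 12, that of Cdkn2b (chr4:89310983-89311282, minus strand) 18, that of Mgmt (chr7:136894336-136894635, plus strand) 20 at its upstream start and 3 at another start (chr7:136912848-136913147), which is not printed, and that of Col6a3 (chr1:90843922-90844221, minus strand) 3.
Cdkn2a, upstream start: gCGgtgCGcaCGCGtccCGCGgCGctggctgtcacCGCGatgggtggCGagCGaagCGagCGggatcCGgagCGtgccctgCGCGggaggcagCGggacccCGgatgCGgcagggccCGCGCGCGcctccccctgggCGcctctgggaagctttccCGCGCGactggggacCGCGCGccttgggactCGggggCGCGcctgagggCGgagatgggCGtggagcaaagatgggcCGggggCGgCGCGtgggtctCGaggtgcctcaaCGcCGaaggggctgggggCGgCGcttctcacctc
Cdkn2a, downstream start: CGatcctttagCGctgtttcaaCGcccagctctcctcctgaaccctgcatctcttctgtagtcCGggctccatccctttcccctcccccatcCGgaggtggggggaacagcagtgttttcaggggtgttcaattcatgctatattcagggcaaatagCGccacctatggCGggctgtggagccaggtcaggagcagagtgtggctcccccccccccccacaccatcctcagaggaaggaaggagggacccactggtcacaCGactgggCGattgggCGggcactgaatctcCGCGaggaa
Cdkn2b: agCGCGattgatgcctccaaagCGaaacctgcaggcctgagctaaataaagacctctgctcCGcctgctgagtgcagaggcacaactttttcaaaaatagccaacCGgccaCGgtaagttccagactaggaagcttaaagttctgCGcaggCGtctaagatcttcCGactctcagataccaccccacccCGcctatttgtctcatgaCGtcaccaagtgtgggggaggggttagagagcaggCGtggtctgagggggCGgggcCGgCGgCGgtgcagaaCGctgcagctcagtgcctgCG
Mgmt: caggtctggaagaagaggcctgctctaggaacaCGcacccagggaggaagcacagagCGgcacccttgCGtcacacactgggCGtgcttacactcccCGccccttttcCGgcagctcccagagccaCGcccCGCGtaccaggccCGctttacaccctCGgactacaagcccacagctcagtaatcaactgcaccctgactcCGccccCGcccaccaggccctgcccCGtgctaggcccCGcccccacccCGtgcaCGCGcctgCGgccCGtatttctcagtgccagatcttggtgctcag
Col6a3: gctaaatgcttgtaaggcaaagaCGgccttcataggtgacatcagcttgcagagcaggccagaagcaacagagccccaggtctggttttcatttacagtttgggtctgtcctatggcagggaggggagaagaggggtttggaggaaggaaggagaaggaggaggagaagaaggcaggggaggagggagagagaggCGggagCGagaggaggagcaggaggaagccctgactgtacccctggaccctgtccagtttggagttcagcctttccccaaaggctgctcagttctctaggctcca

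Among all 27025 RefSeq start regions of this length, 94.2% held the dinucleotide CG (a palindrome, so the same on both strands), the median was 7, and 43.9% held 10 or more. For genes tested the median was 20 (10571 regions matched, 80.5% with 10 or more). It was 16 for genes read in primary alone (69 of 88 matched, 68.1% with 10 or more) and 6 for genes read in C2C12 alone (44 of 97 matched, 29.5%). These counts describe the letters of the reference only, since methylation was not measured.

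Genes listed for cell cycle inhibitors, the Rb family and p53 were more often higher in primary myoblasts. The list also holds Myc, Mycn, Mycl and Tert. Of 33 tested, 16 were higher and 9 lower, beside 27.4% and 26.7% of all genes tested. Over 2-fold, 9 were higher and 5 lower, and the lowest log2 fold change was −2.69. The median was 0.65, and without primary replicate 3 the numbers were 18 and 9. The called genes named in this paragraph are all among the higher ones. Cdkn1a, the p21 kinase inhibitor, gave 465, 501 and 382 CPM in primary against 197, 209 and 246 CPM in C2C12 libraries (log2 fold change 1.05, standard error 0.14, adjusted p = 0.000676). Ccng1, a p53 target cyclin, gave 815, 917 and 748 CPM in primary against 226, 191 and 201 CPM in C2C12 libraries (log2 fold change 2.01, standard error 0.12, adjusted p = 2.01e-05), and Zmat3, another p53 target, had a log2 fold change of 1.83. The groups did not overlap for these 3 genes. Trp53 itself was at 87.2 to 113 CPM in primary against 90.5 to 107 CPM in C2C12 libraries, a log2 fold change of 0.02 (adjusted p = 0.877).

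Genes of G2 and mitosis were lower in primary myoblasts throughout. All 40 of the list were lower, 38 of them over 2-fold, and none overlapped between the groups. Over all genes tested, 26.7% were lower, 14.3% over 2-fold lower, and 65.1% did not overlap. The median log2 fold change was −2.31 (−2.05 without primary replicate 3). Their summed level was 1051 to 1679 CPM in primary and 6021 to 6613 CPM in C2C12 libraries. Kif20a, a kinesin of cytokinesis, gave 28.2, 29.9 and 25.2 CPM in primary against 203, 200.4 and 214 CPM in C2C12 libraries (log2 fold change −2.89, standard error 0.10, adjusted p = 2.33e-06). Ccnb2, a mitotic cyclin, and Cdc20, the activator of the anaphase-promoting complex, were at −3.76 and −3.13 on the log2 scale. Of 40 S phase genes, 26 were lower and 4 higher, with a median of −0.49. Tk1, the thymidine kinase of S phase, gave 26.4, 26.3 and 26.7 CPM in primary against 80.1, 84.2 and 80.6 CPM in C2C12 libraries (log2 fold change −1.62), and E2f1, the factor that drives S phase genes, was among the 4 higher, with 64.2, 70.5 and 68.9 CPM in primary against 34.2, 34.9 and 33.1 CPM in C2C12 libraries (log2 fold change 0.99, adjusted p = 9.79e-05).

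**Figure D2:**
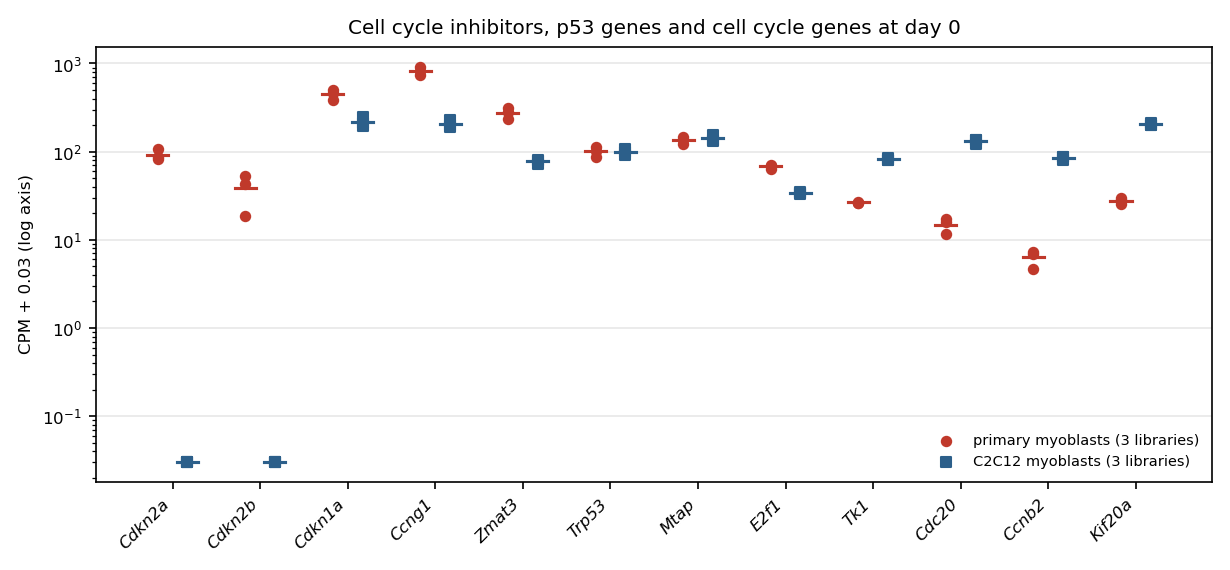
CPM (log axis) in each day 0 library of 12 cell cycle and INK4 locus genes, primary left of C2C12. Cdkn2a and Cdkn2b are at 0 in all 3 C2C12 libraries while Mtap is read in all 6, and Cdc20, Ccnb2 and Kif20a are lower in all 3 primary libraries.

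Imprinted genes, of which one parental copy is silent, were mostly higher in primary myoblasts. Of 21 tested, 15 were higher and 1 lower, with a median log2 fold change of 1.85 (18 higher, 2 lower and 2.16 without primary replicate 3). Igf2, a fetal growth factor that drives myoblast growth and differentiation, gave 5976, 5945 and 4556 CPM in primary against 24.4, 28.4 and 30.3 CPM in C2C12 libraries, with no overlap (log2 fold change 7.63, standard error 0.20, adjusted p = 8.28e-07). Igf2r, the receptor that clears it, gave 565, 555 and 464 CPM in primary against 122, 139 and 124 CPM in C2C12 libraries (log2 fold change 2.04). Mest, an imprinted hydrolase family gene, gave 2804, 4165 and 2346 CPM in primary against 133, 196 and 201 CPM in C2C12 libraries (log2 fold change 4.14), and Plagl1, a zinc finger factor, gave 443, 481 and 267 CPM in primary against 3.27, 1.68 and 3.19 CPM in C2C12 libraries (log2 fold change 7.21). All 4 genes were higher in each primary library than in any C2C12 library.

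Grb10, an adaptor that damps insulin and IGF receptor signalling, gave 659, 601 and 14.96 CPM in primary against 0.331, 0.584 and 0.548 CPM in C2C12 libraries. Primary replicate 3 was far below the other primary libraries and still above C2C12 (log2 fold change 9.75, standard error 1.58, adjusted p = 0.00164), and without it the difference in Grb10 was 10.34 on the log2 scale. Dcn, the collagen-binding proteoglycan decorin and the one imprinted gene called lower, gave 0.258, 0.612 and 0.657 CPM in primary against 20.3, 13.9 and 22.5 CPM in C2C12 libraries (log2 fold change −5.21, adjusted p = 3.38e-05). The imprinted non-coding genes H19, Meg3, Rian, Mirg, Airn and Kcnq1ot1 were not analysed here.

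Igfbp2 and Igfbp6, binding proteins that carry IGFs outside the cell, were lower in primary myoblasts. Igfbp2 gave 5.23, 4.48 and 4.95 CPM in primary against 481, 543 and 669.6 CPM in C2C12 libraries (log2 fold change −6.85, standard error 0.18, adjusted p = 8.28e-07), and Igfbp6 had a log2 fold change of −7.28. Over the 40 growth factors and binding proteins tested, 10 were higher and 20 lower in primary, with a median of −0.75. Of 32 growth factor receptors 10 were higher and 12 lower, shares near the 27.4% and 26.7% of all genes tested, and without primary replicate 3 they were 13 and 13. Pdgfrb, a PDGF receptor, gave 3.31, 3.98 and 1.24 CPM in primary against 146, 170.2 and 155 CPM in C2C12 libraries, with no overlap (log2 fold change −5.79, standard error 0.37, adjusted p = 2.3e-05). In the Wnt pathway 7 were higher and 18 lower of 37, with a median of −0.46, and without primary replicate 3 they were 13 and 18 with a median of −0.13. The ligands Wnt10a and Wnt10b were at 0 to 0.0387 CPM in primary against 20.2 to 24.9 CPM in C2C12 libraries and at 0.0383 to 0.110 CPM in primary against 12.3 to 13.9 CPM in C2C12 libraries, while the receptor Fzd4 was higher in primary by 3.77 on the log2 scale. For Notch genes 7 were higher and 9 lower of 23 (10 and 9 without primary replicate 3). For TGF-beta and BMP genes 11 were higher and 14 lower of 37 (13 and 17 without it). Over all genes tested, 27.4% were higher and 26.7% lower.

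Extracellular matrix genes were more often lower than higher in primary myoblasts. Of 27 collagens tested, 5 were higher and 12 lower, all 12 over 2-fold, with a median log2 fold change of −0.58, or −0.14 with DESeq2. Without primary replicate 3, 9 were higher and 13 lower. Of 43 other matrix proteins, 6 were higher and 26 lower, with a median of −1.06 (11 and 26 without primary replicate 3). Type I collagen, the main fibril of connective tissue, was nearly absent from primary myoblasts. Col1a2, one of its chains, gave 0.442, 0.803 and 0.773 CPM in primary against 958, 1167 and 1009 CPM in C2C12 libraries (log2 fold change −10.60, standard error 0.24, adjusted p = 6.83e-07), and Col1a1 gave 1.29, 0.995 and 0.928 CPM in primary against 53.5, 68.4 and 69.4 CPM in C2C12 libraries (log2 fold change −5.89, standard error 0.19, adjusted p = 1.65e-06). Col6a3, a chain of the collagen VI network, gave 0.0368, 0.0383 and 0.0387 CPM in primary against 344, 375 and 303 CPM in C2C12 libraries, which in primary came from at most 1 count per library. Thbs2, a matrix glycoprotein that binds cell receptors, was at −2.38 on the log2 scale.

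Cell surface partners of the matrix differed in both directions. Of 19 integrins tested, 5 were higher and 8 lower, beside 27.4% and 26.7% of all genes tested. Itga6, the laminin receptor subunit, gave 1345, 1388 and 582 CPM in primary against 117, 104 and 99.7 CPM in C2C12 libraries (log2 fold change 3.37, standard error 0.33, adjusted p = 0.000164). Itgb3, a subunit of the vitronectin receptor, was at 1.12 to 2.76 CPM in primary against 66.03 to 77.96 CPM in C2C12 libraries (log2 fold change −5.22, standard error 0.29, adjusted p = 1.24e-05). Of 26 cadherins and other adhesion molecules, 11 were higher and 5 lower, with a median of 0.30, or −0.07 with limma on log2(TPM + 1). Without primary replicate 3, 13 of them were higher and 10 lower, with a median of 0.45. Of 30 matrix proteases and inhibitors, 10 were higher and 12 lower, beside 27.4% and 26.7% of all genes tested. Without primary replicate 3 they were 12 and 16.

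**Figure D3:**
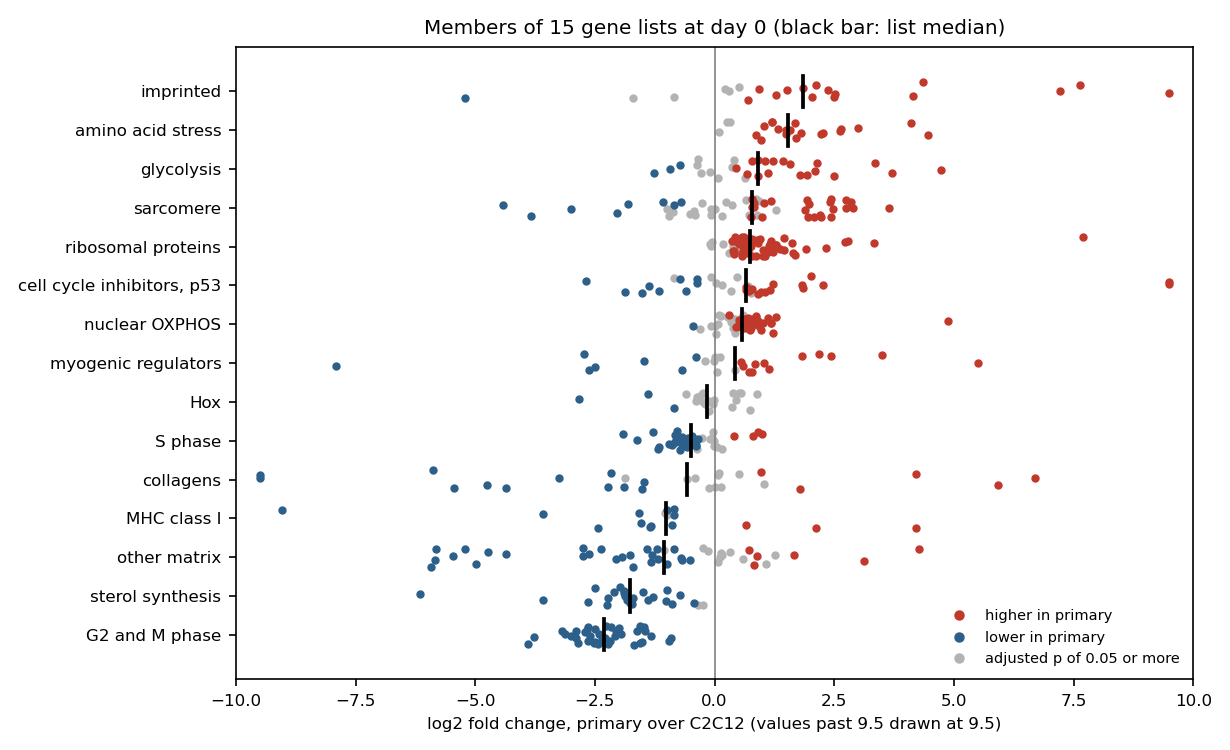
Log2 fold change (primary over C2C12) of each tested member of 15 gene lists, coloured by whether it passed the test, with a black bar at each list's median; values past 9.5 are drawn at 9.5. The G2 and M phase genes lie wholly below 0 with a median of −2.31, and the imprinted genes lie mostly above 0 with a median of 1.85.

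Sterol synthesis and the amino acid stress response differed in most of their members, in opposite directions. Of 25 sterol genes, 23 were lower and 0 higher in primary, with a median log2 fold change of −1.76. Idi1, the isomerase that makes a building block of sterols, gave 17.2, 18.6 and 19.7 CPM in primary against 99.4, 84.2 and 78.3 CPM in C2C12 libraries, with no overlap (log2 fold change −2.24, standard error 0.12, adjusted p = 1.26e-05). Of 22 genes of the amino acid stress response, 19 were higher and 0 lower, with a median of 1.54. Trib3, a pseudokinase induced through Atf4, gave 139, 105 and 173 CPM in primary against 6.63, 6.84 and 5.43 CPM in C2C12 libraries (log2 fold change 4.46, standard error 0.22, adjusted p = 7.29e-06). Cth, an enzyme of cysteine synthesis, was higher by 3.00 and Chac1, which degrades glutathione, by 2.63. The serum and medium in which the cells were expanded differed, and their part in these values cannot be told apart from that of the cell type.

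Genes of energy metabolism and translation were more often higher in primary. For glycolysis 18 were higher and 3 lower of 29, with a median log2 fold change of 0.90. Pygm, the muscle glycogen phosphorylase, gave 247, 256 and 284 CPM in primary against 7.99, 9.21 and 12.6 CPM in C2C12 libraries (log2 fold change 4.73, standard error 0.19, adjusted p = 3.27e-06). For nuclear genes of oxidative phosphorylation 34 were higher and 1 lower of 58 (median 0.57). Their median was 0.32, 0.50 and 0.89 in primary replicates 1, 2 and 3 over the mean of C2C12, highest in primary replicate 3. As each library was left out, it ranged from 0.44 to 0.71. For the mitochondrial genome 6 were higher and 0 lower of 13 (median 0.38). That median was 0.58 without C2C12 replicate 1 and 0.16 without C2C12 replicate 2. Cox6a2, the heart and muscle form of a cytochrome oxidase subunit, was at 11.2 to 20.1 CPM in primary against 0.331 to 0.797 CPM in C2C12 libraries (log2 fold change 4.88). Of 70 ribosomal protein genes, 60 were higher and 0 lower, with a median of 0.73. These genes have many near-identical pseudogene copies among which reads can be split. With pseudogene counts added to the coding gene, 64 were higher and 0 lower of 71, with a median of 0.74. Rps2 was an extreme case, at 1696 to 2208 CPM in primary against 9.17 to 9.73 CPM in C2C12 libraries with a log2 fold change of 7.69, which became 0.20 (adjusted p = 0.228) once the copies were added.

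Of 30 interferon response genes, 9 were higher and 10 lower, shares near the 27.4% and 26.7% of all genes tested. For MHC class I and antigen presentation genes 3 were higher and 11 lower of 16 (median −1.01). Tap1, which carries peptides into the endoplasmic reticulum, gave 19.2, 19.6 and 20.4 CPM in primary against 0.828, 1.24 and 1.096 CPM in C2C12 libraries (log2 fold change 4.22, standard error 0.19, adjusted p = 5.43e-06). The class I gene H2-T23 was at 1.69 to 2.71 CPM in primary against 23.2 to 29.7 CPM in C2C12 libraries (log2 fold change −3.59), and as other class I genes are close copies the split of its reads is uncertain. Of 20 chemokines and cytokines tested, 3 were higher and 11 lower. Of 24 immediate early genes 5 were higher and 14 lower. Of 31 Nrf2 and glutathione genes 11 were higher and 10 lower, beside 27.4% and 26.7% of all genes tested. The metallothioneins Mt1 and Mt2, which bind metals, were at −4.11 and −4.79 on the log2 scale.

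Some genes were read in one cell type alone, defined as at least 1 CPM in each library of a group and no more than 3 counts in each library of the other. There were 88 such genes in primary (0.291% of all genes) and 97 in C2C12 (0.321%), of which 10 and 30 were pseudogenes or predicted genes. In primary, 38 of them had no count in any C2C12 library, and 31 of the C2C12 genes had none in any primary library. Mgmt, which removes alkyl groups from guanine, gave 24.96, 28.8 and 35.1 CPM in primary against 0, 0 and 0 CPM in C2C12 libraries, at least 198-fold higher in primary. Gpc4, a cell surface heparan sulfate proteoglycan, gave 115, 121 and 88.2 CPM in primary against 0.0414, 0.0344 and 0 CPM in C2C12 libraries. Among genes with no count in C2C12, Fndc3c1 was at 23.4, 24.1 and 16.3 CPM, Zcchc3 at 18.3, 26.3 and 18.01 CPM and Brinp1 at 11.9, 14.8 and 21.9 CPM in primary, at least 142-fold, 140-fold and 108-fold higher.

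In the other direction, Runx3, a runt family transcription factor, gave 0.110, 0 and 0 CPM in primary against 51.6, 52.04 and 48.7 CPM in C2C12 libraries. Ifi202b, an interferon-inducible gene with close relatives beside it, gave 0.0368, 0 and 0.0387 CPM in primary against 47.1, 50.1 and 51.9 CPM in C2C12 libraries. Wherever such a gene held 1 to 3 counts in a library of the other group, only the values are given. Without primary replicate 3, 123 genes were read in primary alone and 119 in C2C12 alone. Leaving out any library can only keep or raise these counts, since fewer libraries must meet the rule. The Y chromosome genes Ddx3y and Eif2s3y were nearly absent from C2C12. Ddx3y, an RNA helicase, gave 130.3, 114 and 98.6 CPM in primary against 0.290, 0.206 and 0.349 CPM in C2C12 libraries and Eif2s3y, a translation factor subunit, gave 87.6, 85.5 and 82.5 CPM in primary against 0.166, 0.138 and 0.0498 CPM in C2C12 libraries, with no overlap. Both have X-linked relatives of similar sequence, whose part in the C2C12 counts was not tested. Kdm5d and Uty were higher by 2.30 and 3.12 on the log2 scale, and Xist was not analysed here. Together these 4 genes summed to 291 to 359 CPM in primary against 17.1 to 22.9 CPM in C2C12 libraries. Nearly all of the C2C12 sum came from counts assigned to Kdm5d and Uty. Whether reads of X-linked relatives entered these counts was not tested either.

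Differences were also gathered by chromosome. On chromosome 2, 592 of 1152 tested genes (51.4%) were higher and 174 (15.1%) lower in primary, with a median log2 fold change of 0.41. In 96.2% of its windows of 25 consecutive genes the median was above 0. The median difference on chromosome 2 was 0.39, 0.42 and 0.37 in primary replicates 1, 2 and 3. On chromosome 7, 432 of 1070 (40.4%) were higher and 161 lower, with a median of 0.28, and 89.1% of windows were above 0. Chromosomes 1, 3, 8 and 13 were among those below 0 in all 3 primary libraries. On chromosome 1 the medians were −0.11, −0.20 and −0.27, with 20.4% of genes higher and 34.7% lower. Chromosome 15 also leaned lower, with 80 of 560 higher and 199 lower and a median of −0.26. Its medians by library were −0.43, −0.42 and −0.01, so that primary replicate 3 did not share the shift. Without that library the medians were 0.45 on chromosome 2 and 0.31 on chromosome 7, and with limma, which moved the median of all genes by −0.10, they were 0.27 and 0.17. Copy number was not measured.

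Primary replicate 3 differed from its group along whole chromosomes. On chromosomes 6, 10, 11, 15 and 18, chosen after their values were seen, its median log2 difference from the mean of the other primary libraries was 0.21 to 0.44, and on the other chromosomes −0.11 to −0.02. The replicate 3 libraries of primary cells at later days, on patterned gelatin, showed the same chromosomes, with 0.27 to 0.42 at day 4 and 0.26 to 0.43 at day 7, against −0.13 to 0.04 elsewhere at both days. For C2C12 replicate 3, every chromosome lay between −0.04 and 0.06 at the 3 days.

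**Figure D4:**
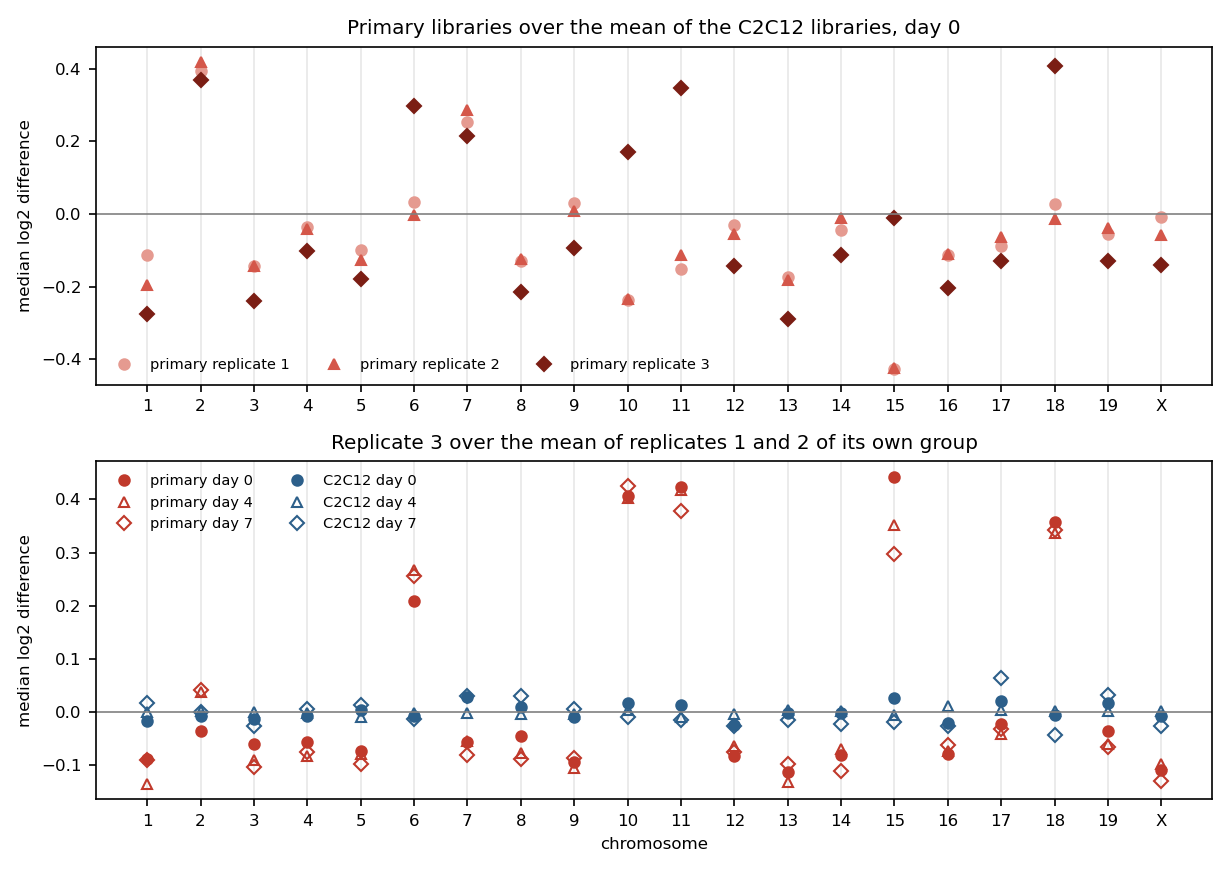
Top, median log2 difference on each chromosome of each primary day 0 library over the mean of the C2C12 libraries; bottom, the same for replicate 3 over the mean of replicates 1 and 2 of its own cell type at days 0, 4 and 7. Chromosomes 2 and 7 lie above 0 in all 3 primary libraries, and primary replicate 3 lies above its group on chromosomes 6, 10, 11, 15 and 18 on each day.

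At a finer scale, gene clusters stood out. Among windows of 25 tested genes, the highest median was 1.37 on chromosome 18, from Pcdhga1 to Rell2, with 16 higher and 2 lower, where the gamma protocadherins share exons and the split of reads among them is uncertain. The lowest median was −2.07 on chromosome 13, from Zkscan4 to Hist1h2ag, with 3 higher and 19 lower. This window lies in the major histone cluster, whose genes are near copies of each other. The genes at the window ends were chosen by position.

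The contrast between primary and C2C12 was followed into myotubes on patterned gelatin at days 4 and 7, in a fit of 18 libraries and 15262 genes. It held no term for replicate number, so same-numbered libraries of different days were taken as independent. Primary replicate 3 nonetheless differed from its group on the same chromosomes at each day. In that fit 4089 genes (26.8%) were higher and 3666 lower at day 0, 3436 (22.5%) higher and 3156 (20.7%) lower at day 4, and 3525 (23.1%) higher and 3380 (22.1%) lower at day 7. Of the 1769 genes over 2-fold higher at day 0, 1307 (73.9%) were called higher at day 4 and 1170 (66.1%) at day 7. Of the 2040 over 2-fold lower, 1322 (64.8%) were called lower at day 4 and 1214 (59.5%) at day 7. The substrate changed from plastic at day 0 to patterned gelatin later, and day and substrate cannot be told apart here.

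Cdkn2a stayed at 0 in C2C12 at each day and was at 47.3, 37.6 and 53.6 CPM at day 4 and 50.2, 27.6 and 49.8 CPM at day 7 in primary. Igf2 remained higher in primary, by 4.46 at day 4 and 4.30 at day 7 on the log2 scale, and its difference changed by −3.35 between day 0 and day 7 (adjusted p = 7.76e-08), with 155, 178 and 178 CPM in C2C12 libraries at day 7. Col1a2 remained lower, at −7.92 and −9.53, and its change between the days had an adjusted p of 0.285. Pax3 also kept its direction, with 2.61 and 3.02, and the change of its difference between day 0 and day 7 did not pass the test (adjusted p = 0.574).

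Pax7, Myod1 and Myog did not keep theirs. Pax7 was at 22.9, 16.95 and 5.99 CPM in primary and 38.8, 39.6 and 28.7 CPM in C2C12 libraries at day 7, a difference of −1.23 on the log2 scale (adjusted p = 0.0251), where at day 0 it was higher. The difference between the days was −2.09 (standard error 0.58, adjusted p = 0.0172). In this larger fit the day 0 difference of Pax7 was 0.86 with an adjusted p of 0.0878. Myod1 was at 148, 166 and 127 CPM in primary and 175, 196 and 236 CPM in C2C12 at day 7 (log2 fold change −0.46, adjusted p = 0.0185), and its difference between the days was −2.90 (adjusted p = 3.93e-07). Myog was at 481, 418 and 212 CPM in primary and 664, 753 and 816 CPM in C2C12 at day 7 (log2 fold change −1.01, adjusted p = 0.0265), and its difference between the days was −2.86 (adjusted p = 0.00083). Myf5 was −0.98 at day 7 (adjusted p = 0.205). Its change from day 0 did not pass the test (adjusted p = 0.154), and did with the replicate number as a block within each cell type (adjusted p = 0.0296).

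**Figure D5:**
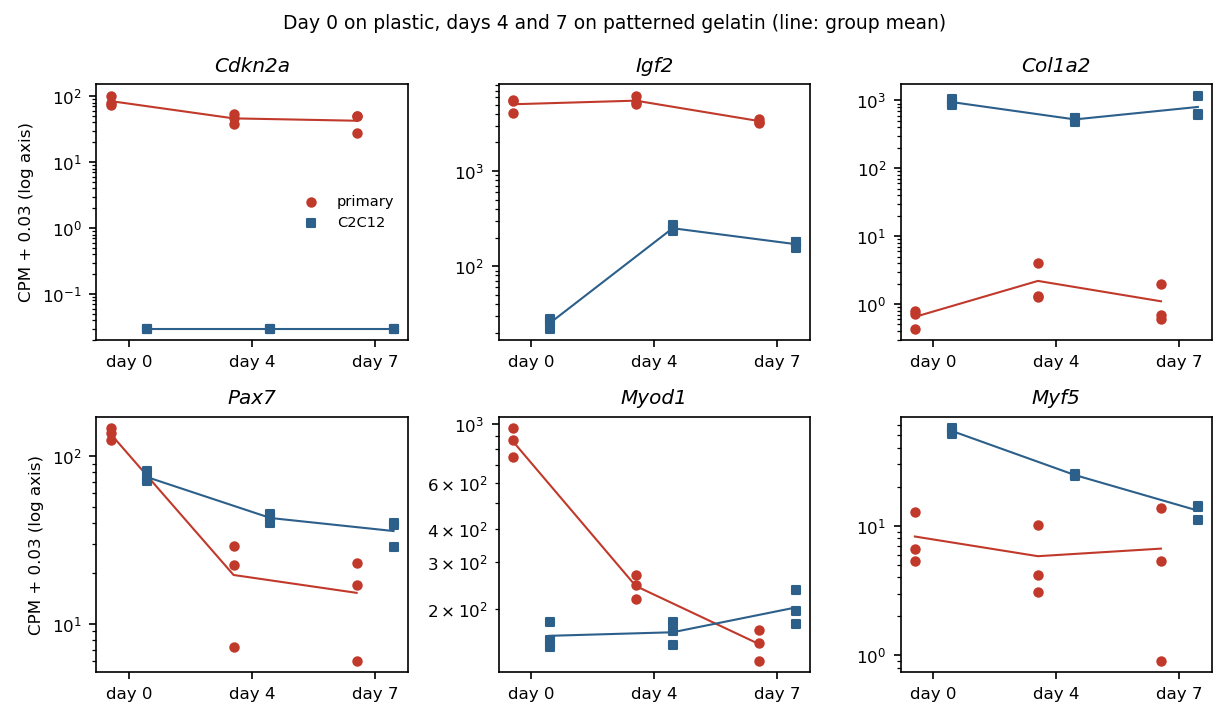
CPM + 0.03 on a log axis, scaled over 18 libraries, of Cdkn2a, Igf2, Col1a2, Pax7, Myod1 and Myf5 at day 0 on plastic and days 4 and 7 on patterned gelatin, with primary left of C2C12. Igf2 and Cdkn2a stay higher in primary at each day, while Pax7 and Myod1 are higher in primary at day 0 and lower at day 7.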

How the data were processed

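The authors pseudoaligned reads with Kallisto to mouse transcripts and deposited, for each transcript of each library, an estimated count and length-corrected TPM, and the labels name mm10, while version and annotation of Kallisto were not stated. Transcript IDs were matched to GENCODE genes and the estimated counts of each gene's transcripts were summed and rounded to whole numbers, giving 30205 genes. Pseudoalignment divides reads among near-identical transcripts, so values of gene families and pseudogenes are uncertain. 9 listed genes, most of them non-coding, found no match and were not analysed here.

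The 6 day 0 libraries were fitted with edgeR 4.0.16 in R 4.3.3 (TMM scaling, filterByExpr, quasi-likelihood test, Benjamini-Hochberg adjustment, threshold 0.05). A gene was read in one cell type alone with at least 1 CPM in each library of a group and at most 3 counts in each of the other. Days 4 and 7 were fitted together with day 0. Alternatives used DESeq2 1.42.0, limma 3.58.1 on log2(TPM + 1), RLE factors, no filter, length-scaled counts, all 30 libraries, coding genes only, a replicate block and leaving out each library. Adding counts of pseudogenes to the coding gene they match over at least 50% of their length at 95% identity (blastn 2.17.0) was chosen after seeing the data.

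The text names the 12 highest and 12 lowest fold changes past the threshold among non-overlapping genes whose mean log2 CPM reached 3, up to 4 genes per list by adjusted p, any member of the regulator, Hox, limb, cell cycle inhibitor, imprinted and sex chromosome lists, the 8 highest read in each cell type alone, and cell type markers. Members and lists were chosen with earlier results of these data known. Of the genes at both ends, pseudogenes and near copies are not described. Some genes that this rule names are not reported here. Intervals are not given for counts since the estimates are not independent molecules. On simulated data of 14226 genes, 100 were changed by log2 1 and 100 by log2 2. Of these, 59% and 81% were found, with 8.50 false per 100 calls. In the data 54.0% of genes were called, a far larger share than was changed here, so these rates need not hold for this comparison. Start regions are those of RefSeq on GRCm38.p6.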

Additional observations from a re-analysis of the deposited data

Results flagged for a closer look

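The difference between primary and C2C12 changed with the day. In the fit of 18 libraries the log2 difference, primary over C2C12, was higher at day 7 than at day 0 for 1594 genes (10.4%) and lower for 1970 (12.9%) by an interaction term in edgeR at an adjusted p under 0.05. With the replicate number as a block within each cell type, an alternative chosen after seeing the data, 2458 were higher and 2937 lower. Pax7 was called here because its difference was lower at day 7 by −2.09 on the log2 scale (adjusted p = 0.0172), Myod1 because its difference was lower by −2.90 (adjusted p = 3.93e-07), Myog by −2.86 (adjusted p = 0.00083) and Igf2 by −3.35 (adjusted p = 7.76e-08). Day 0 libraries were on plastic and day 7 libraries on patterned gelatin, so day and substrate cannot be told apart.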

How the results depend on the processing

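The 7685 genes that differed at day 0 became 7658 with RLE factors, 8029 with DESeq2 and 6680 with limma, and 6039 to 9638 as each library was left out. Genes over 2-fold were 3556 to 4199, genes read in one cell type alone 202 to 242 and lists with most tested members called one way 10 to 19 (13 with all libraries), the highest each time without primary replicate 3. For genes read in one cell type alone, the full set of libraries gave 185. Leaving a library out can only keep or raise that count. The count read in one cell type alone was 398 (194 in primary, 204 in C2C12) when up to 10 counts were allowed in the other and 66 (30 and 36) at a level of at least 5 CPM. The counts were 6481 to 7080 at day 4, 6844 to 7364 at day 7 and 2882 to 3534 for the change between the days. The median of cadherins and adhesion molecules changed sign with limma on log2(TPM + 1), to −0.067 against 0.30 in edgeR, and limma moved the median of all genes by −0.10 relative to edgeR, and the cause was not tested. Of 94 named genes called at day 0, 87 kept their call under the 15 settings, and Des, Cdh15, Id2, Id3, Hoxc5, Pcdhga1 and Rps2 lost it under at least 1. Many of the named genes were picked by their fold change or adjusted p in this same fit. The share kept therefore says little about the other genes called. With 15 genes per window the highest median was 2.68 and lay on chromosome X, with the protocadherin window of chromosome 18 next at 2.28.

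The replicate numbers were not taken to pair the samples, since deviations of same-numbered libraries correlated at 0.154, 0.0927 and 0.146, although each library correlated best with its own number, which is a hint from the data only. Between day 0 and day 7 same-numbered libraries correlated at 0.236, 0.343 and 0.489 in primary and 0.356, 0.0776 and 0.0619 in C2C12. Primary replicate 1 and C2C12 replicate 3 at day 0 correlated better with replicate 2 at day 7, at 0.393 and 0.0804, than with their own number. The others correlated best with their own number. The change between the days was called for 5395 genes with the replicate block within cell type, against 3564 without. With the replicate block at day 0 7508 genes differed, 3777 higher and 3731 lower. Precision is limited by 3 libraries per group and by the spread of the primary libraries.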
